A study of Homo sapiens with 2 samples.

Results

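TERT, the reverse transcriptase that builds telomeric repeats, and 9 of its partner proteins were followed through 2 poly(A) RNA libraries of a human osteosarcoma cell line. The genes were chosen by name: TERT, DKC1, NOP10, NHP2, GAR1, WRAP53, NAF1, TEP1, PARN and RTEL1. All 10 were found, of 28172 named genes with usable values in both libraries. The cells were G1S-CCPM-Cas9, a recombinant U2OS line that carries a marker of the G1 to S cell cycle phases and stably makes the Cas9 nuclease from a CAG promoter. They were untreated and grown with 10% fetal bovine serum and 500 µg/mL geneticin, and both libraries share all of this. The libraries form 1 group of 2 replicates, so no condition is compared, and no label states if they came from separate cultures or if the line is 1 clone, so their spread may be technical.

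Telomerase copies a template within its RNA, TERC, onto chromosome ends, with TERT as the catalytic protein. TERC belongs to the H/ACA class of RNAs, which are bound by DKC1, NOP10, NHP2 and GAR1, and these proteins also serve the H/ACA RNAs that guide RNA modification. Inherited defects in several of these genes cause dyskeratosis congenita and related telomere disorders. U2OS is widely used as a line that keeps its telomeres by recombination (the ALT pathway) rather than by telomerase.

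Levels are the deposited FPKM (fragments per kilobase of transcript per 1000000 fragments) as mean ± SD with n = 2, and the deposited bounds around a value cover estimation within 1 library. The widths of the bounds, read by a relation inferred from the values themselves, implied depths, in units of 1000000 fragments, of 76.3 in replicate 1 and 73.5 in replicate 2. Of the bone lineage markers, 6 of 9 stood at FPKM 1 or more in both libraries and 2, SPARC and COL1A1, at FPKM 5 or more. SP7, an early osteoblast factor, was at FPKM 0.0104 in replicate 1 and 0.0108 in replicate 2, and IBSP and BGLAP, late osteoblast markers, were listed at 0. The 4 mesenchymal markers were all above FPKM 5, and their summed FPKM was 4549 in replicate 1 and 3021 in replicate 2. None of 4 haematopoietic, 3 endothelial and 4 liver and neural markers reached FPKM 1 in either library. Of 4 epithelial markers 2 did so in both, EPCAM at 11.98 in replicate 1 and 13.8 in replicate 2, and CDH1 at 2.36 and 1.17. The summed epithelial FPKM was 14.7 in replicate 1 and 15.4 in replicate 2, and the part of any of these markers in the levels given here was not tested.

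**Figure D1:**
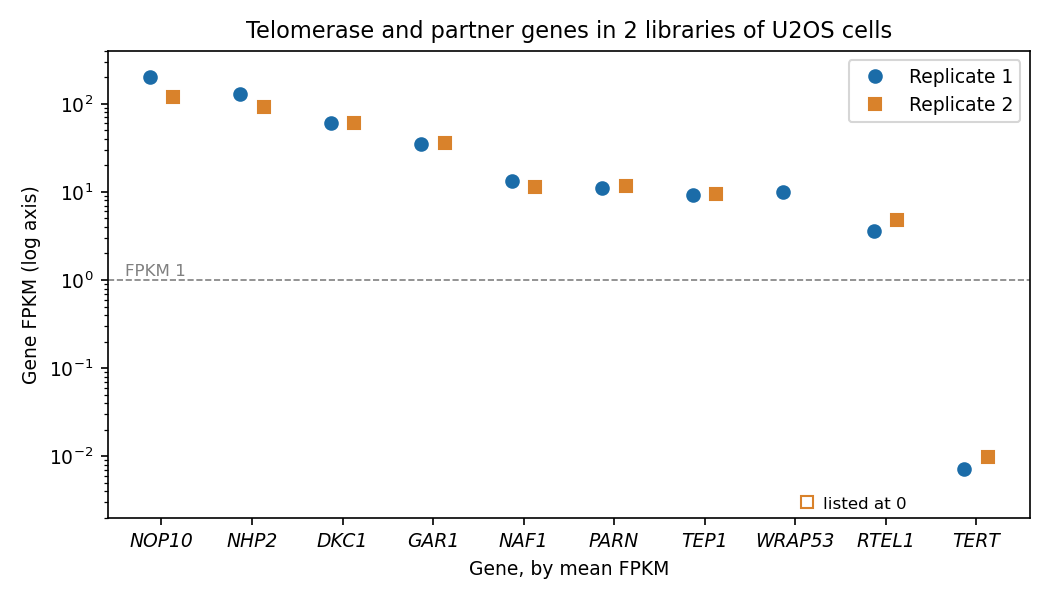
Gene FPKM on a log axis of the 10 genes in replicate 1 (circles) and replicate 2 (squares), in the order of their means, with an open square for a value listed at 0. The 4 genes of the H/ACA core lead, TERT lies near FPKM 0.01 in both libraries, and WRAP53 is at 9.93 in replicate 1 and listed at 0 in replicate 2.

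Of the 10 genes, 8 were at FPKM 1 or more in both libraries, against 41.8% of all named genes. The exceptions were TERT and WRAP53. The median over the 10 was 12.1 in replicate 1 and 11.6 in replicate 2. Over all named genes the median was 0.243 in replicate 1 and 0.264 in replicate 2. Over the 11782 genes at FPKM 1 or more in both it was 11.9 in replicate 1 and 11.5 in replicate 2. The 10 include TERT and WRAP53, which do not meet that condition, so these are medians of unlike sets.

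TERT was barely detected (GRCh38 chromosome 5, 1253167 to 1295047). Its gene FPKM was 0.00722 in replicate 1 and 0.00975 in replicate 2, a mean of 0.00849 ± 0.00179 (SD, n = 2), and the deposited lower bound was 0 in both. At the inferred depth these values correspond to 1.996 fragments in replicate 1 and 1.998 in replicate 2, or about 2 in each library. The count is an extrapolation, since the fit used only entries with a lower bound above 0. The TERT upper bounds, 0.0268 in replicate 1 and 0.0315 in replicate 2, lie above those the inferred relation gives for 2 fragments. Read directly by that relation, the bounds imply fewer. An exact Poisson 95% interval for 2 fragments runs from 0.242 to 7.22, which is FPKM 0.000877 to 0.0262 in replicate 1 and 0.00118 to 0.0353 in replicate 2. It covers counting error only. Both libraries therefore had TERT at the edge of detection, and a difference between them was not detectable at this depth.

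The estimates assigned TERT to different annotated transcripts in the libraries. The files list 4 reference transcripts of TERT. In replicate 1 the value rested on NM_001193376.1, of 3829 bases, and in replicate 2 on rna23653, a transcript of 2992 bases that the files give under the gene name TERT without an accession. The full-length coding transcript NM_198253.2, of 4018 bases, was listed at 0 in both, with upper bounds of 0.00687 in replicate 1 and 0.00713 in replicate 2. These bounds are close to the gene values of TERT. So few fragments cannot settle which transcript they came from, nor that the full-length one was absent. Among named genes, 31.8% were listed at 0 in replicate 1 and 31.01% in replicate 2. By rank, 33.2% of named genes were at or below TERT in replicate 1, and 33.1% were in replicate 2.

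**Figure D2:**
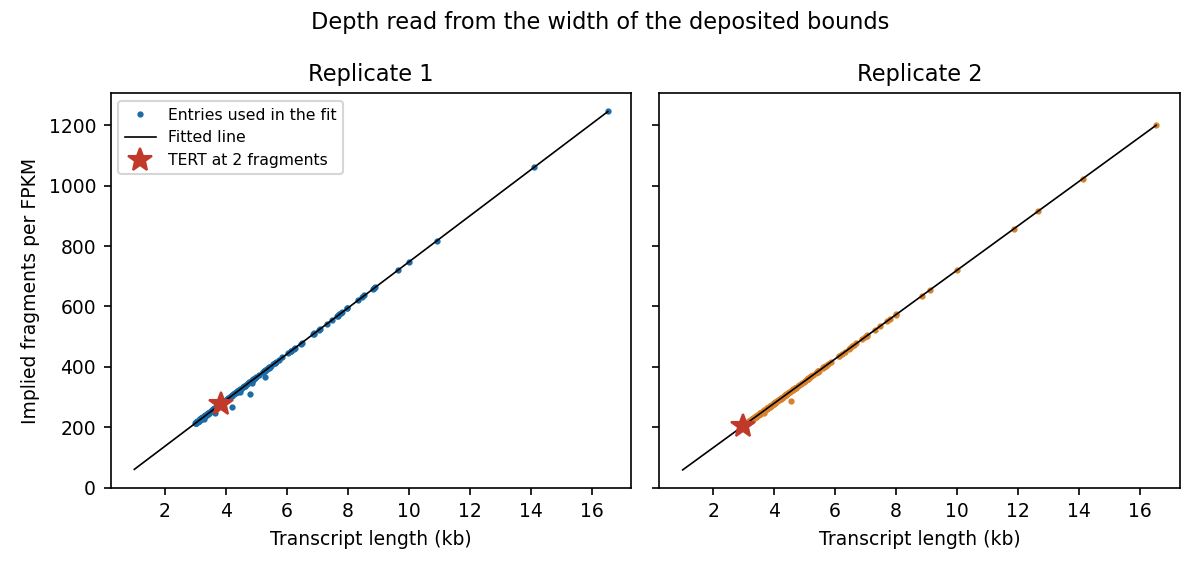
Implied fragments per FPKM (vertical axis) against transcript length in kb for the single-transcript entries used to fit the depth, whose fragment numbers were inferred from the bounds, with the fitted line, in each replicate. TERT, drawn as a star at 2 fragments, lies on the line in both libraries by construction, since its count was read from the line.

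DKC1, which encodes the pseudouridine synthase dyskerin, stood 8467 times above TERT in replicate 1 and 6190 times in replicate 2. These quotients carry the wide counting interval of TERT. RTEL1, the lowest partner in replicate 1, was at FPKM 3.62 there.

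The genes around TERT on chromosome 5 were not uniformly low. Of 11 neighbours listed for this stretch, 7 were at FPKM 1 or more in both libraries, against the 41.8% of all named genes. CLPTM1L, the next protein-coding gene on the side of the TERT start, was at FPKM 292 in replicate 1 and 264 in replicate 2. On the other side, the amino acid transporter genes SLC6A18 and SLC6A19 were near or at 0: SLC6A18 was listed at 0 in both libraries, and SLC6A19 was at 0.00527 in replicate 1 and listed at 0 in replicate 2. SLC6A3, the dopamine transporter gene beyond CLPTM1L, was at 0.00351 in replicate 1 and listed at 0 in replicate 2. Farther out, SLC12A7, a potassium and chloride cotransporter gene, was at FPKM 21.2 in replicate 1 and 19.7 in replicate 2. LPCAT1, an enzyme of phospholipid remodelling, was at 26.3 in replicate 1 and 25.6 in replicate 2. TERT thus sat among genes of very different levels, with a highly expressed gene as its nearest neighbour upstream.

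**Figure D3:**
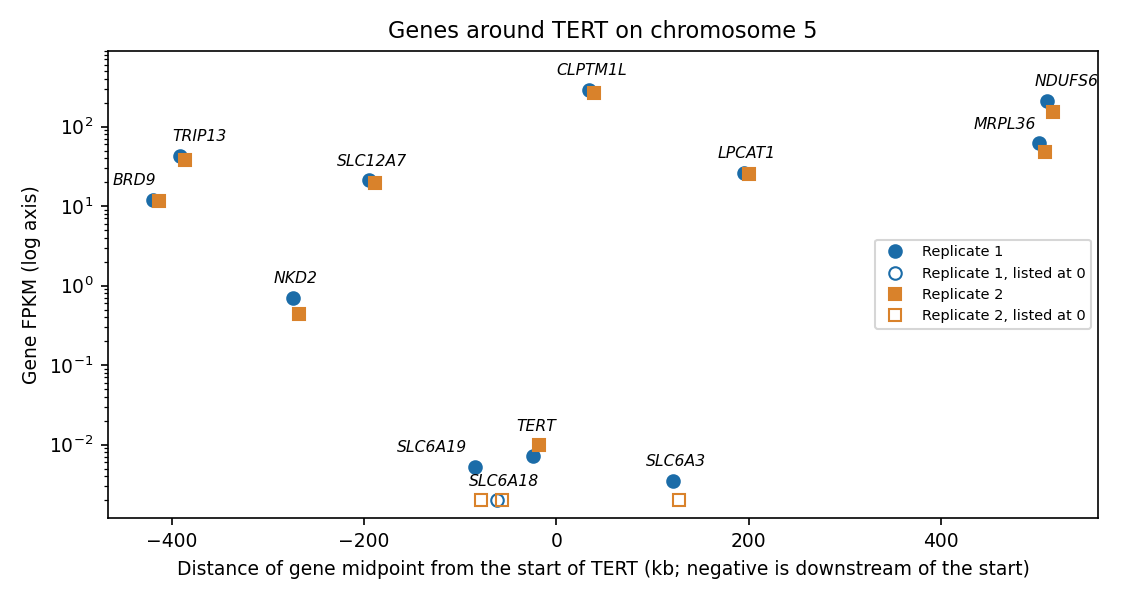
Gene FPKM on a log axis against the distance in kb of each gene's midpoint from the start of TERT, in replicate 1 (circles) and replicate 2 (squares), with open symbols for values listed at 0. CLPTM1L, at 292 and 264, stands beside TERT, and the 3 SLC6A genes lie at or near 0.

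The stretches just upstream of TERT, DKC1 and NOP10 are shown because these genes span the range of levels in the set. Each is the 250 bases before the gene start in RefSeq (GRCh38.p14), 5′ to 3′ on the gene's strand. The RefSeq starts differ from those in the deposited files, so the windows of DKC1 and NOP10 reach into the spans given below for these genes. Capitals mark every match, on either strand and with overlaps counted, to the GC box GGGCGG, the E-box CACGTG or the ETS core CCGGAA. The TATA box, as TATAAA, was also searched for.
TERT (chr5:1295069-1295318, minus strand): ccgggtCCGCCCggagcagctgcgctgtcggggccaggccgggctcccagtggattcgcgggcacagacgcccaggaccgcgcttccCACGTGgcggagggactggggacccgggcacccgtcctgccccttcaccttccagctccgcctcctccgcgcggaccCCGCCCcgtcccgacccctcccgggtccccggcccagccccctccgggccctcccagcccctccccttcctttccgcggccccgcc
DKC1 (chrX:154762614-154762863, plus strand): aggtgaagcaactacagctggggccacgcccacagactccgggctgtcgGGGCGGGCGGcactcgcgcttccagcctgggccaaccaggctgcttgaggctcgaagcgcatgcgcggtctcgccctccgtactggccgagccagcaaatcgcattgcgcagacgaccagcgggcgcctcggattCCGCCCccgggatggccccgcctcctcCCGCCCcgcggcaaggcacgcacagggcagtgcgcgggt
NOP10 (chr15:34343137-34343386, minus strand): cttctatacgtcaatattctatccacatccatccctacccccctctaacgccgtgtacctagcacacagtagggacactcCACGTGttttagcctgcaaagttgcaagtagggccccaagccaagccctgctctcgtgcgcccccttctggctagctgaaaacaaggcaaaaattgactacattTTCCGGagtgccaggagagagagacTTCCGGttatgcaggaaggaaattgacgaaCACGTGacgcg

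The window of TERT holds 2 GC boxes and 1 E-box, that of DKC1 holds 4 GC boxes, and that of NOP10 holds 2 E-boxes and 2 ETS cores. The TATA box was in none of these 3 windows. GC content was 78.8% for TERT, 72% for DKC1 and 52% for NOP10, against a median of 58% over 35116 windows of the same length. Of those windows, 42.6% hold a GC box, 6.34% the E-box, 14.5% the ETS core and 10.7% the TATA box. Windows were at hand for 9 of the 10 genes, 13 in all. Of the 13, 8 hold a GC box, 2 the E-box, 3 the ETS core and 0 the TATA box. The 2 with the E-box are those of TERT and NOP10, both printed above. The matches describe letters in the reference genome and were not set against the levels by any test.

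The genes of the H/ACA core proteins were the highest of the set. NOP10, the smallest of them and a scaffold for dyskerin (GRCh38 chromosome 15, 34341716 to 34343161), was at FPKM 199.6 in replicate 1 and 118.9 in replicate 2, a mean of 159 ± 57.0 (SD, n = 2). NHP2, the RNA-binding core protein (chromosome 5, 178149463 to 178153960), was at 129 in replicate 1 and 92.3 in replicate 2, a mean of 111 ± 26.2. Both were lower in replicate 2, by a factor of 1.68 for NOP10 and 1.40 for NHP2. The values rest on an estimated 4964 fragments in replicate 1 and 2889 in replicate 2 for NOP10, and on 6377 and 4413 for NHP2.

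DKC1 and GAR1 differed little between the libraries. DKC1 (chromosome X, 154762742 to 154777689) was at FPKM 61.2 in replicate 1 and 60.4 in replicate 2, a mean of 60.8 ± 0.576. Its bounds ran from 55.9 to 66.5 in replicate 1 and from 53.6 to 67.2 in replicate 2. GAR1, which joins the complex last in place of NAF1 (chromosome 4, 109815510 to 109824737), was at 34.7 in replicate 1 and 35.8 in replicate 2, a mean of 35.2 ± 0.779. The protein core binds in equal copies, but protein was not measured here. The RNA levels per length were unequal: NOP10 was 3.26 times DKC1 in replicate 1 and 1.97 times in replicate 2. NHP2 was 2.12 times DKC1 in replicate 1 and 1.53 times in replicate 2. GAR1 was 0.567 of DKC1 in replicate 1 and 0.593 in replicate 2.

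The locus of DKC1 also hosts the small nucleolar RNA genes SNORA36A and SNORA56 and the microRNA gene MIR664B within its span. All were listed at 0 in both libraries, matched by their coordinates, with upper bounds as high as 4.40 (SNORA56 in replicate 2). The part of their short length, 61 to 132 bases, and of the poly(A) selection in these values was not tested. The whole FPKM of DKC1 was carried by NM_001363.4, and its other reference transcripts were at 0. NHP2 was likewise carried by NM_017838.3, and NOP10 has 1 reference transcript. GAR1 split between NM_018983.3, with 61.2% of its FPKM in replicate 1 and 59.2% in replicate 2, and the shorter NM_032993.2, a split that hardly moved.

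NAF1, the assembly factor that holds the place of GAR1 on new H/ACA particles (chromosome 4, 163084037 to 163166921), was at FPKM 13.2 in replicate 1 and 11.4 in replicate 2, a mean of 12.3 ± 1.27. It stood at 0.381 of GAR1 in replicate 1 and 0.319 in replicate 2. Its transcripts were estimated less evenly than the locus as a whole. XM_006714413.1 led in both libraries, with 44.2% of the locus in replicate 1 and 37.4% in replicate 2. XM_006714414.1 was at 2.94 in replicate 1 but at 0 in replicate 2, while NM_138386.2 was at 3.10 and 3.27. Transcripts assembled at the locus held 10.2% of its FPKM in replicate 1 and 34.0% in replicate 2. With reference transcripts alone the mean was 9.71.

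WRAP53, which carries TERC and other small RNAs to Cajal bodies (chromosome 17, 7686071 to 7703502), showed the widest gap of the set. It was at FPKM 9.93 in replicate 1, with bounds from 9.23 to 10.6 and an estimated 1264 fragments, all on NM_001143992.1. In replicate 2 the gene and its 5 reference transcripts were listed at 0. The libraries thus placed WRAP53 either among clearly expressed genes or at no value.

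A value of 0 opposite a well-expressed one was found elsewhere in these libraries. Of 9132 genes at FPKM 5 or more in a library, 120 were listed at 0 in the other, which is 1.31%. Of the members, 1 of 8 was. WRAP53 carried no failed status in either library. A listed 0 can still be a failed estimate, and whether it is one for WRAP53 was not tested. The 0 is given here as deposited.

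PARN, a ribonuclease that trims the tail of TERC precursors (chromosome 16, 14435700 to 14630271), was at FPKM 11.0 in replicate 1 and 11.7 in replicate 2, a mean of 11.4 ± 0.520. Its leading transcript changed between the libraries. NM_002582.3 was at 6.54 in replicate 1, with bounds from 6.05 to 7.03, and at 4.35 in replicate 2, with bounds from 3.95 to 4.75. NM_001134477.2 was at 4.46 in replicate 1, with bounds from 4.05 to 4.86, and at 7.38 in replicate 2, with bounds from 6.85 to 7.92. The bounds of each transcript do not overlap between the libraries, while the gene totals lie close together.

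A change of leading transcript was common in these files. Among 4468 genes at FPKM 1 or more in both libraries with several reference transcripts above 0 in each, the leading transcript differed in 23.2%. Of the members, GAR1, NAF1, TEP1 and PARN could be set against this, and 1 of the 4, PARN, changed. The share in the members is close to the background. Both shares count any change of leading transcript, with no condition on bounds or gene totals. How often bounds lay apart, as for PARN, was not counted.

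TEP1, a protein that binds TERC and is also part of vault particles (chromosome 14, 20365667 to 20414172), was at FPKM 9.20 in replicate 1 and 9.49 in replicate 2, a mean of 9.35 ± 0.205. The libraries lay close together for the gene as a whole, and less so for its transcripts. XM_005268027.2 led in both, at 4.24 in replicate 1 and 5.25 in replicate 2. NM_007110.4 was at 2.84 in replicate 1 and 4.25 in replicate 2, and the numbered transcript rna57536 was at 2.12 in replicate 1 but at 0 in replicate 2.

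RTEL1, a helicase that unwinds telomeric loops (chromosome 20, 63657810 to 63696253), was at FPKM 3.62 in replicate 1 and 4.84 in replicate 2, a mean of 4.23 ± 0.865 over its own reference transcripts. NM_016434.3 was at 3.62 in replicate 1 and 3.26 in replicate 2. The remainder went to different transcripts: RTEL1-TNFRSF6B, a noncoding readthrough into the next gene, was at 1.57 in replicate 1 but at 0 in replicate 2, and NM_001283009.1 was at 1.58 in replicate 2 but at 0 in replicate 1. Over all transcripts of the locus the values were 5.20 in replicate 1 and 4.84 in replicate 2. TNFRSF6B, a decoy receptor gene, was listed at 0 in both.

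**Figure D4:**
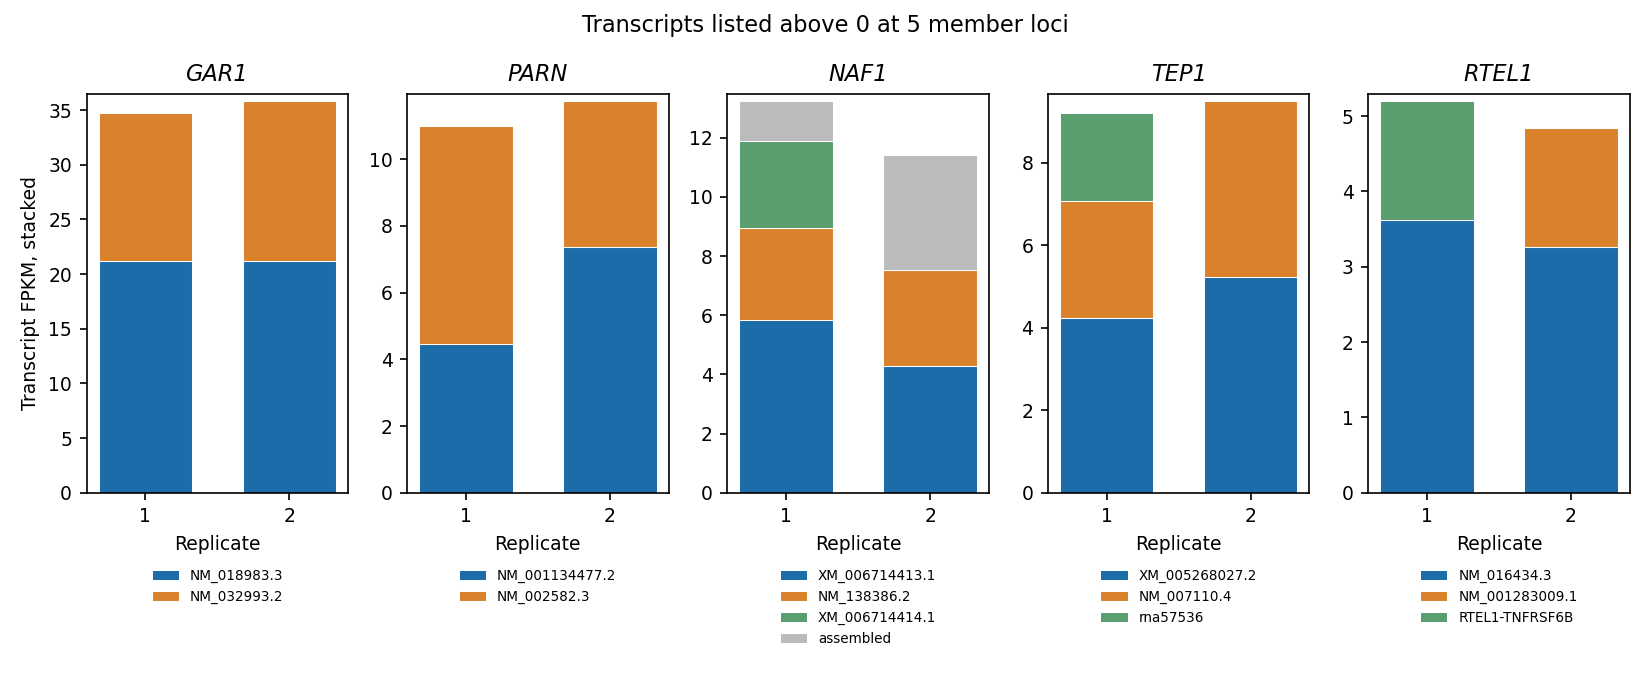
Stacked FPKM of the transcripts above 0 at the loci of GAR1, PARN, NAF1, TEP1 and RTEL1 in replicates 1 and 2, with assembled transcripts in grey. Bar heights are close between replicates at each locus, GAR1 keeps its split, and the 2 transcripts of PARN exchange rank.

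In the order of mean FPKM the genes ran NOP10, NHP2, DKC1, GAR1, NAF1, PARN, TEP1, WRAP53, RTEL1 and TERT. Of the 9 neighbouring pairs, 5 had values that did not overlap between the libraries: NHP2 above DKC1, DKC1 above GAR1, GAR1 above NAF1, PARN above TEP1, and RTEL1 above TERT. NOP10 was above NHP2 in each library, though their ranges overlapped. NAF1 and PARN changed order between the libraries. The places of TEP1, WRAP53 and RTEL1 depended on the 0 of WRAP53.

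The libraries were also compared by ratio, as log2 of (FPKM + 1) in replicate 2 over replicate 1, a scale that understates the ratio of low genes. A gene counted as differing at an absolute log2 ratio of 1 or more with bounds apart. Over all genes tested, 1.21% differed so (144 of 11944). Of 8 members with bounds and FPKM 1 or more in a library, 1 did, WRAP53, through its 0. For the 8 members above 0 in both libraries and at FPKM 1 or more in 1 of them, the median absolute log2 ratio was 0.14, and over the 12216 genes that meet the same condition it was 0.18. WRAP53, with its 0, is in neither. At an absolute log2 ratio of 0.32 or more with bounds apart, 3 members counted, NOP10 and NHP2 being added, beside 23.8% of all genes tested.

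The ratios moved with transcript length. NOP10, with a transcript of 535 bases, had a log2 ratio of -0.74, and NHP2, with 855 bases, of -0.48. Among 540 genes of mean FPKM 5 or more with transcripts of 200 to 1000 bases, the median log2 ratio was -0.37 and the interquartile range -0.58 to -0.17. NHP2 lay inside that range and NOP10 below it. GAR1, at 0.04, lay above the interquartile range of genes with transcripts of 1000 to 2000 bases (-0.42 to -0.08). NAF1 at -0.20, DKC1 at -0.02 and TEP1 at 0.04 lay inside the ranges of their lengths, and PARN at 0.09 above its own (-0.29 to 0.05). RTEL1 had the highest ratio of the 8, 0.34, above the range of genes with transcripts of 4000 bases or more (-0.06 to 0.23), though its mean FPKM is under the level set for those genes. The part of transcript length in these ratios was not tested.

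**Figure D5:**
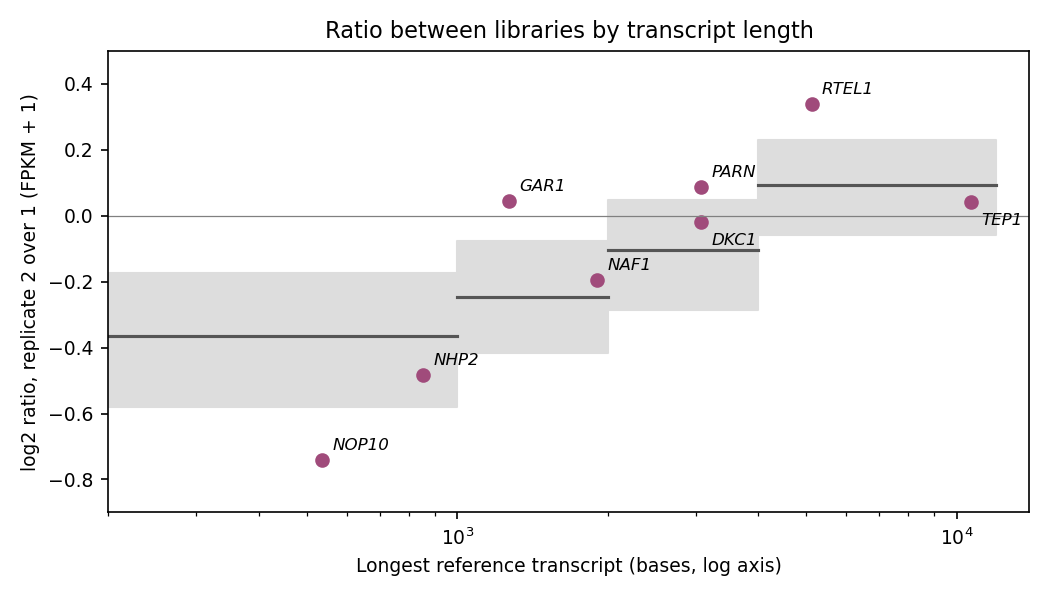
Log2 ratio of replicate 2 over replicate 1 for 8 of the genes (points) against the longest reference transcript in bases on a log axis, with grey bands for the interquartile range and lines for the median of genes of mean FPKM 5 or more in 4 ranges of length. RTEL1, of mean FPKM 4.23, is below that level. NOP10 and NHP2, the shortest, have the lowest ratios of the 8, at -0.74 and -0.48.

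Most listed genes of the wider pathway were expressed while TERT was near 0. Of 16 genes for TERC maturation and particle assembly, 14 were at FPKM 1 or more in both libraries, against 41.8% of all named genes. The list median was 12.7 in replicate 1 and 13.2 in replicate 2. That is near the 11.9 and 11.5 of all genes at FPKM 1 or more in both. The list median includes TERC and SMN2, which do not meet that condition. The ATPases RUVBL1 and RUVBL2, which assist H/ACA assembly, were well expressed. RUVBL1 was at FPKM 40.6 in replicate 1 and 36.7 in replicate 2, and RUVBL2 at 140.01 in replicate 1 and 96.2 in replicate 2. SHQ1, the chaperone of newly made dyskerin, was at 11.99 ± 0.0216 (SD, n = 2), NOLC1, a partner of H/ACA particles, at 41.2 ± 2.48, and COIL, the Cajal body scaffold, at 14.04 ± 0.601. The polymerase TENT4B, which adds short tails to TERC, was at 10.4 ± 0.634, the deadenylase TOE1 at 10.7 ± 1.63 and the exosome nuclease EXOSC10 at 34.1 ± 0.471. SMN1 was at 1.59 ± 0.177 and SMN2 at 0.533 ± 0.0995, and these near-identical copies may share reads. TERC itself was listed at 0 in both libraries. The libraries were made from poly(A) RNA, and the part of this selection in the value of TERC was not tested.

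RNA of the genes listed for the folding of TERT and WRAP53 was mostly abundant, and protein was not measured. All 11 usable genes of that list were at FPKM 1 or more in both, against 41.8% of all named genes. The list median was 192 in replicate 1 and 184 in replicate 2. The chaperonin subunits ran from CCT2, at 157 ± 5.18, to CCT7, at 317 ± 43.6. HSP90AA1 was at 543 ± 0.101 and its cochaperone PTGES3 at 249 ± 3.43. The ubiquitin ligase STUB1 was the lowest of the 11, at 33.9 ± 8.24. HSP90AB1 was left out because its estimate had a failed status in replicate 1. These proteins serve many other clients, and the counts say nothing particular of telomerase.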

How the data were processed

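Poly(A) RNA was measured in 2 libraries of 1 line. Cufflinks 2.2.1, TopHat2 2.0.13 with Bowtie2 2.2.3, Trimmomatic 0.32 and FastQC 0.11.2 are named for GRCh38 in the submitters' processing notes. Their settings were not given in the sources used here, nor were strand use and annotation release. The authors deposited FPKM with bounds per gene and transcript, and an estimated coverage per transcript, per the file headers. Assembled transcripts carry separate names in each library and were therefore summed, not matched.

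Transcripts were named by RefSeq accession (46566), by the files (21274) or not at all (27540). A gene's FPKM is its locus value, or the sum of its own reference transcripts where a locus holds several symbols, as for RTEL1. Genes with a failed status (44) were left out. Starts are 1-based.

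Bounds were taken as FPKM × (1 ± 2/√n), a relation inferred from the values and stated by no source used here, and solved for n in single-transcript entries; of those under 200 fragments, 42.4% in replicate 1 and 42.7% in replicate 2 came within 0.02 of a whole number. Depth was fitted on 243 and 254 of these, longer than 3000 bases, and offset the length by 209 and 205 bases. This step was chosen after seeing the data. Values were computed with pandas 2.3.3, scipy 1.17.1 and numpy 2.4.6 in Python 3.11.15 and drawn with matplotlib 3.10.9. The rule for differing genes was tried on simulated data. The depth fit was tried on bounds simulated by the same relation, so that trial could not test the relation.

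The members and lists were chosen with earlier results of these data known. All 10 members are named; of the lists any member may be; other genes only where they overlap or adjoin a member. No p-value was computed. Alternatives covered thresholds, pseudocount, scale, reference transcripts alone and each library alone.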

Additional observations from a re-analysis of the deposited data

How the results depend on the processing

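The count of members at FPKM 1 or more in both libraries, 8, was 8 at FPKM 0.1 and 7 at FPKM 5. With a lower bound above 0 it was 8. That count takes in RTEL1, a sum of transcripts without gene bounds, so it is no check for RTEL1. The count at FPKM 1 ran from 8 to 9 with a single library. The number of members differing between the libraries, 1, was 1 with a pseudocount of 0.1 and 1 without the filter on low values, but 3 at an absolute log2 ratio of 0.32, where 23.8% of all genes tested differed. Non-overlapping neighbours in the order numbered 4 rather than 5 with reference transcripts alone, and 7 to 8 of the 9 neighbouring pairs kept their order in a single library. At FPKM 5 the count for RNA maturation and assembly was 13 rather than 14, those for folding (11) and the chromosome 5 stretch (7) did not move, and those of the bone lineage and epithelial markers were 2 rather than 6 and 1 rather than 2. The log2 ratio of DKC1, -0.02, was 0.02 when centred on the median of all genes, and that of GAR1, 0.04, was -0.04 when FPKM was rescaled to 1000000 per library, as that of TEP1, 0.04, was -0.03, so these ratios have no settled direction. Nor has that of RTEL1, whose FPKM was higher in replicate 2 over its own transcripts (3.62 in replicate 1 and 4.84 in replicate 2) but lower over the whole locus (5.20 and 4.84). The ratio of NAF1 was -0.59 with reference transcripts alone. Depth fitted on transcripts longer than 1000 bases, an alternative chosen after seeing the data, was 76.2 and 73.5 on the scale of 1000000 fragments. With about 2 inferred fragments per library, TERT is limited by counting, and with 2 libraries any SD is rough. No paired analysis was possible because the libraries form 1 group.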

Other observations

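Short assembled entries lay within the spans of NAF1 and RTEL1 and none within those of the other 8 genes. The span of NAF1 held 2 such entries in replicate 1 and 6 in replicate 2, the longest of 351 and 783 bases. The span of RTEL1 held 4 in replicate 1, with FPKM from 1.46 to 25.2, and 3 in replicate 2, with FPKM from 0.961 to 1.502. These entries were not part of the gene values. NUTM1, a gene that starts beside NOP10 and is known from the testis, was at FPKM 0.00687 in replicate 1 and 0.00713 in replicate 2, about the level of TERT, while NOP10 was at 199.6 and 118.9.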
